A study of Mus musculus with 6 samples.

Results

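The genes described here encode the proteins of the cytosolic ribosome. They were taken by symbol from the protein-coding genes of the GENCODE annotation of mouse build mm10: symbols that start with Rpl or Rps and a digit, or with Rplp, without the Rps6k kinases and without pseudogenes. The rule found 85 of 21755 genes on chromosomes 1 to 19 and X. Of these, 43 encode proteins of the large subunit, 30 proteins of the small subunit and 3 the acidic stalk, and 9 are other forms or partners, such as Rpl3l, the form of striated muscle, and Rps19bp1, which binds Rps19.

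The data were 6 libraries of BLISS, an assay that joins adaptors to free DNA ends in fixed nuclei and copies the DNA next to them by in vitro transcription, so that the first base of each read marks a labelled end. All 6 came from sorted forebrain neurons of CK-p25 mice after 2 weeks without doxycycline in the diet. In these mice p25, a truncated activator of the kinase Cdk5, is made in forebrain neurons under a transactivator driven by the Camk2a promoter once doxycycline is withdrawn. The titles name 3 groups, Con, Step1 and Step2, with 2 libraries each; all groups share genotype and induction. The meaning of the group names, the age of the mice and whether replicates are separate animals are not in the labels, so a p-value here reflects the spread of these libraries alone, and that spread may be technical.

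The libraries held 1480461 to 2403238 reads, with 1.19 to 1.42 reads per distinct position. A level below is in CPM, a gene's reads per 1000000 of the library's reads outside piled-up windows, a density is CPM per kb, and both are shares of a library, so that fewer neurons with an end at a gene and fewer ends per neuron cannot be told apart. BLISS does not measure expression: 8 neuronal marker genes held a summed 6.81 to 12.7 CPM at their starts and 7 microglial ones 4.64 to 9.17 CPM, so the label of the sorted cells could not be checked with these values.

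Ribosomal protein genes are short, are transcribed at high rates in nearly all cells, and start in a run of pyrimidines that ties their translation to mTOR. Many of their introns also hold small nucleolar RNAs (snoRNAs), which are cut and trimmed out of the spliced intron and guide the chemical modification of ribosomal RNA. Box C/D snoRNAs end close to a CTGA box and guide ribose methylation, whereas box H/ACA snoRNAs end just after an ACA box and guide the conversion of uridine to pseudouridine.

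Summed over the 85 ribosomal protein genes, most reads inside them began at the 3′ ends of these snoRNAs. This majority rested on Rpl4: of 5269 reads in gene bodies, 2696 lay at the 3′ end of its snoRNA Gm23344. The other 58 snoRNAs held 745 antisense reads at their 3′ ends. The sequences of some of the sites with at least 10 reads are shown, because the reads start at or within a few bases of a CTGA or ACA box in each. Each line gives 30 bases of the snoRNA's own strand, 5′ to 3′, from the RefSeq GRCm38.p6 assembly, which has the coordinates of mm10; base 25 of each line is the first base of the reads, and the capitals mark the CTGA or ACA box.
Rpl4 Gm23344: catgattttccttggctattCTGAtactgc
Rpl5 Snord21: aatcattgtttcaagacgggaCTGAaggcg
Rpl13a Snord33: atgactctacatgcactaccatCTGAggct
Rpl3 Snord83b: tccctgttgccttccttCTGAgaacagccc
Rps12 Gm23130: atgggtgagaaacagctagtCTGAcaaacc
Rpl32 Snora7a: tgattggaagacactctgcaACAttactca
Rpl6 Gm26205: ctgctggcactgaagtgggtcgcACAgaag
Rps2 Snora64: cctctcttgcctagaggagcaccACAggtc
The windows lie at chr9:64175088-64175117 (plus strand) in Rpl4, chr5:107904617-107904646 (plus) in Rpl5, chr7:45126866-45126895 (minus) in Rpl13a and chr15:80078496-80078525 (minus) in Rpl3. Those of the small subunit genes lie at chr10:23786469-23786498 (minus) in Rps12 and chr17:24720877-24720906 (plus) in Rps2. The H/ACA windows of the large subunit lie at chr6:115807971-115808000 (minus) in Rpl32 and chr5:121205115-121205144 (plus) in Rpl6. Over the 16 snoRNA positions with at least 10 reads, the first base of the reads lay 1 to 7 bases inside the annotated 3′ end of the snoRNA, and from 1 base before to 4 bases after the last base of the box. At all 16 the reads ran antisense to the snoRNA, from its 3′ end towards its 5′ end.

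The annotations place 59 snoRNAs, 56 of them from GENCODE, inside 29 of the 85 genes. Within 10 bases of their 3′ ends, 3441 reads began antisense to the snoRNA and 3 in its sense. Within 10 bases of the 5′ ends, 0 reads began antisense and 2 sense, and in the middle 3 and 5. At least 1 antisense read lay at the 3′ end of 28 snoRNAs, 31 had none, and 13, in 12 genes, had at least 10. The 1679 other annotated snoRNAs of the genome had the same strand bias, with 2559 antisense and 93 sense reads at their 3′ ends; 2.14% of them held at least 10 antisense reads, against 22.0% of those in ribosomal protein genes. Expression of the snoRNAs was not measured here, and the molecule from which these reads were copied was not tested.

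**Figure D1:**
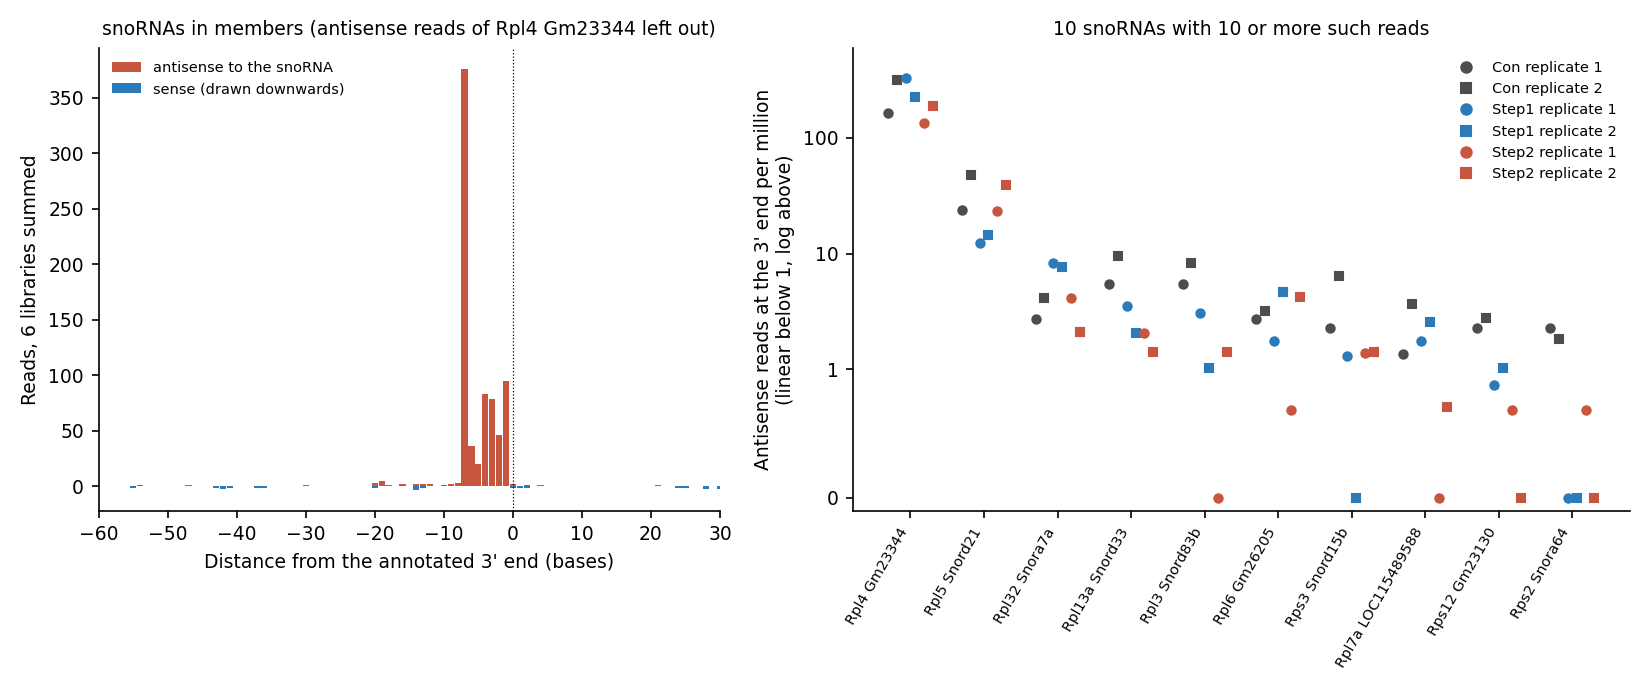
Left, reads summed over the 6 libraries by the distance in bases of their first base from the 3′ end of snoRNAs inside ribosomal protein genes, antisense to the snoRNA upwards (without those of Gm23344 in Rpl4) and sense downwards; the highest bar, 376 reads at 7 bases inside the end, is mostly Snord21 of Rpl5. Right, antisense CPM at the 3′ end of 10 of the 13 snoRNAs with at least 10 such reads, 1 point per library on an axis that is linear below 1 and logarithmic above; Gm23344 lies above 100 in all 6 libraries.

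One snoRNA held 78.3% of these reads. Rpl4, whose protein lines the exit tunnel of the large subunit, holds 5 snoRNAs, and at the 3′ end of Gm23344 in one of its introns there were 358 and 687 antisense reads in the Con libraries, 750 and 439 in Step1, with 195 and 267 in Step2. As levels these were 162 and 315 CPM in Con, 329 and 226 in Step1, with 134 and 188 in Step2: both Step2 libraries lay below both Step1 libraries, and the Con libraries spanned most of the range. Of the 2696 reads, 2680 began at a single base, and 2606 had a mapping quality of at least 30.

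The second site was Snord21 in Rpl5, a protein that joins the large subunit together with Rpl11 and, outside the ribosome, binds Mdm2. It held 52 and 105 antisense reads in Con, 28 and 28 in Step1, with 34 and 56 in Step2, or 23.6 and 48.1, 12.3 and 14.4, and 23.3 and 39.5 CPM. Both Step1 libraries were below the other 4. This order differed from that of Gm23344, where the Step1 libraries were among the higher ones.

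The remaining sites were smaller and did not share 1 order of groups. Snord33 in Rpl13a, whose protein also acts in translational silencing of inflammatory mRNAs, held 5.45 and 9.62 CPM in Con, 3.51 and 2.06 in Step1, with 2.06 and 1.41 in Step2. Snord83b in Rpl3, a protein close to the peptidyl transferase centre, held 5.45 and 8.24 CPM in Con, 3.07 and 1.03 in Step1, with 0 and 1.41 in Step2. At both sites each Con library lay above all 4 Step1 and Step2 libraries, on 50 and 41 reads in all.
Snora7a in Rpl32 was high in Step1, with 8.33 and 7.73 CPM against 2.72 and 4.12 in Con and 4.11 and 2.12 in Step2. This site rested on 58 reads, and its Step1 libraries lay above the other 4. Its repeated positions did not share this order. At 1 base inside the 3′ end, 35 reads began, 0 and 1 in Con, 14 and 13 in Step1, with 5 and 2 in Step2. At 4 bases inside the end, 21 reads began, 6 and 7 in Con, 5 and 2 in Step1, with 1 and 0 in Step2.
Among small subunit genes, Snord15b in Rps3, whose protein sits where mRNA enters the small subunit, held 2.27 and 6.41 CPM in Con, 1.32 and 0 in Step1, with 1.37 and 1.41 in Step2.
Summed over the 58 snoRNAs other than Gm23344, the level was 85.8 ± 31.5 CPM in Con, 47.8 ± 0.0746 in Step1 and 58.2 ± 16.4 in Step2 (SD, n = 2 each).

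Removing reads within 10 bases of snoRNA 3′ ends left 1825 of the 5269 reads in the bodies of the 85 genes. With all reads, antisense density in introns was 1.43 ± 0.549 in Con, 1.60 ± 0.357 in Step1 and 1.00 ± 0.156 CPM per kb in Step2 (SD, n = 2 each), against a sense density of 0.220 ± 0.0271, 0.242 ± 0.0346 and 0.252 ± 0.0195. Without the snoRNA ends the antisense intron density was 0.165 ± 0.0248, 0.158 ± 0.0148 and 0.176 ± 0.0376. In exons, which here include the exons of transcripts that retain an intron, the pooled antisense density went from 0.498 to 0.179 CPM per kb. The 21670 other protein-coding genes had pooled intron densities of 0.200 sense and 0.199 antisense. In their exons the antisense density was 0.459 with all reads and 0.212 with 1 read per position, so that their excess there also lay in repeated positions.

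**Figure D2:**
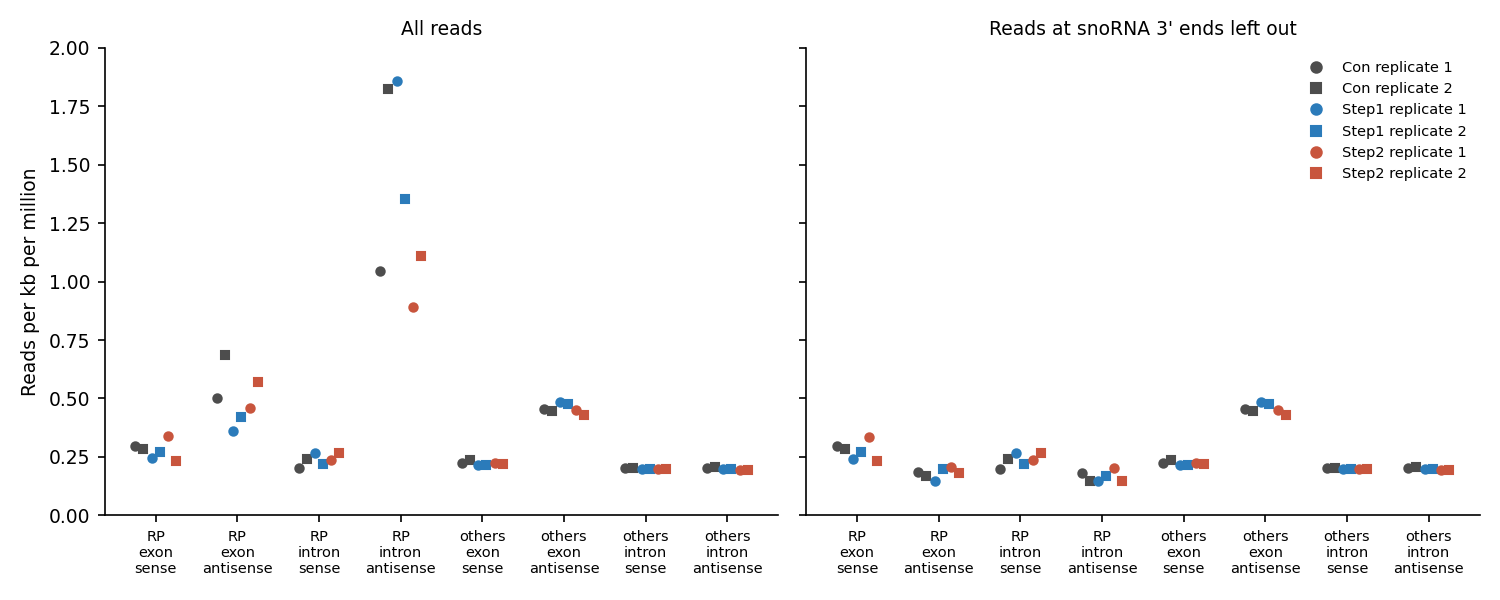
CPM per kb in exons and introns on each strand, for the 85 ribosomal protein genes (RP) and the 21670 other protein-coding genes (others), 1 point per library, with all reads on the left and without reads at snoRNA 3′ ends on the right. Antisense intron density of the ribosomal protein genes, 0.890 to 1.86 with all reads, lies near 0.2 without those reads.

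What remained in the bodies leaned the other way, to the sense strand. Counting 1 read per position and leaving out snoRNA ends, 882 reads were sense and 642 antisense, a ratio of 1.37. The ratio was 1.34 and 1.43 in Con, 1.53 and 1.29 in Step1, with 1.24 and 1.40 in Step2: it was above 1 in all 6 libraries, and the groups overlapped. It was 1.39 in exons and 1.36 in introns. Of the 85 genes, 56 (65.9%) held more sense and 19 (22.4%) more antisense reads, led by Rpl22 with 32 and 9, Rpl35 with 32 and 12, and Rpl3 with 33 and 17. Measured the same way, the ratio was 1.01 over the other protein-coding genes, 1.08 over 78 mitochondrial ribosomal protein genes and 1.08 over 95 nuclear genes of oxidative phosphorylation. Of the other protein-coding genes, 52.3% held more sense and 40.3% more antisense reads. These shares were 55.1% and 42.3% for the mitochondrial ribosomal protein genes, and 53.7% and 40.0% for the oxidative phosphorylation genes. These are descriptions, with no test of the difference. Ribosomal protein genes have many processed copies, and the part of ambiguous alignment in the ratio was not tested: 5.34% ± 0.671 of reads in member exons had a mapping quality under 30 in Con, 3.20% ± 0.849 in Step1 and 3.66% ± 1.02 in Step2 (SD, n = 2 each), against 17.3% ± 1.50, 17.7% ± 0.694 and 15.6% ± 0.480 in exons of other genes.

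Reads at the starts of ribosomal protein genes were few, and denser near the start in Con than in Step1 and Step2, as at other genes. Within 1 kb of the start, the 85 genes held 1560 reads, or 1089 at distinct positions. Every gene had at least 2 reads, and the median was 13, against 10 over the other protein-coding genes, 14 over the mitochondrial ribosomal protein genes and 14 over the oxidative phosphorylation genes. Counting 1 read per position without snoRNA ends, the density within 200 bases of the start was 3.64 and 5.53 times that at 1 to 2 kb in the Con libraries, 2.34 and 2.33 times in Step1, and 2.06 and 2.10 times in Step2. For the other genes the ratios were 2.51 and 3.70, 1.83 and 2.12, and 1.83 and 2.04. In both sets each Con library lay above all Step1 and Step2 libraries, and replicate 2 of Con was highest.

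**Figure D3:**
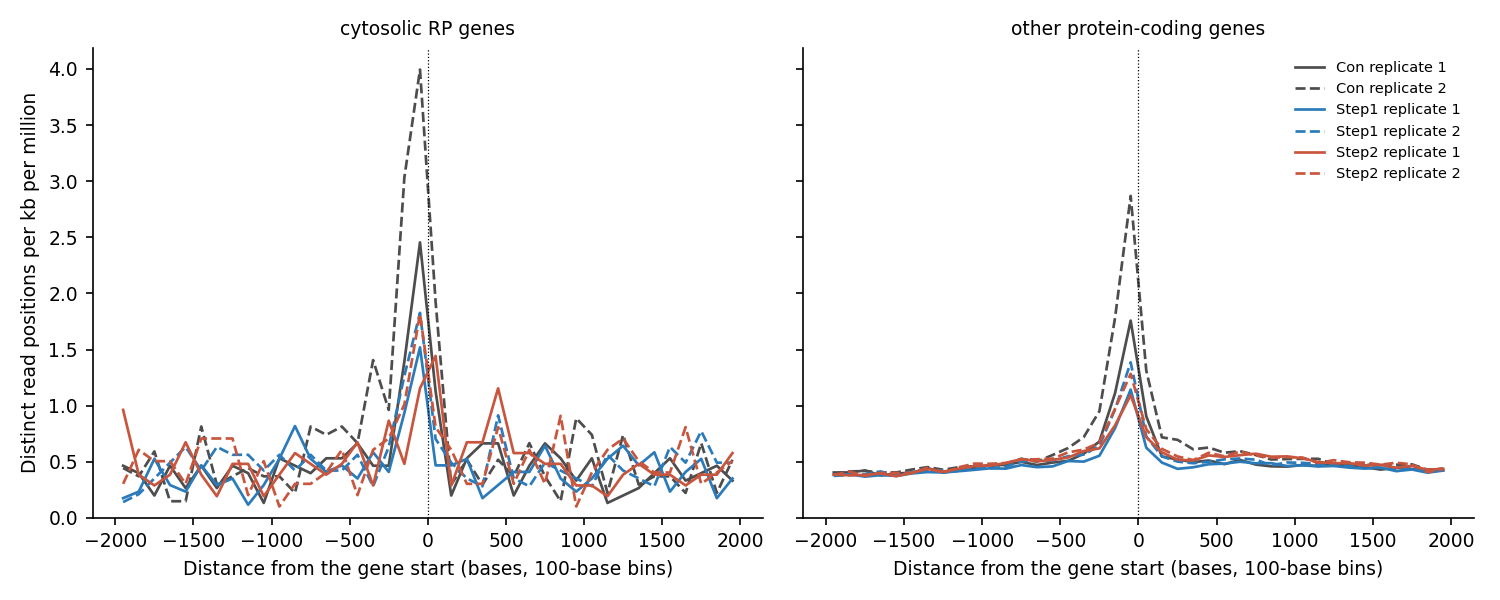
Distinct read positions, as CPM per kb, in 100-base bins, by distance from the gene start, for the 85 ribosomal protein genes (left) and the 21670 other protein-coding genes (right), 1 line per library. Both sets peak just before the start, and the dashed line of Con replicate 2 is highest in both.

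Summed over the 85 genes, the level at starts was 133 and 207 CPM in Con, 111 and 122 in Step1, with 119 and 107 in Step2. Step1 was lower than Con by 0.55 on the log2 scale and Step2 by 0.60, with no overlap between the Con libraries and the others, and Step2 and Step1 overlapped. The direction of this difference depended on the scaling. Over the 917 starts with enough reads to be tested, which a start can be through its Con libraries alone, the median log2 fold change was -0.95 for Step1 and -1.19 for Step2 against Con, and scaling to these starts (median of ratios) made the same sums 0.47 and 0.69 higher than Con. Without that filter, over 21216 starts, the median was -0.12 for Step1 and 0.01 for Step2, beside -0.33 and -0.19 over the 85 genes. The density at starts of the ribosomal protein genes over that of the other protein-coding genes was 0.596 and 0.832 in Con, 0.473 and 0.514 in Step1, with 0.530 and 0.487 in Step2. With piled-up windows left out this ratio was 1.38 ± 0.116 in Con, 1.26 ± 0.0362 in Step1 and 1.18 ± 0.121 in Step2 (SD, n = 2 each). Both Con libraries lay above the other 4 in both of these settings. With 1 read per position Con and Step2 overlapped, at 1.16 ± 0.0849 and 1.03 ± 0.107, and no test of the ratio was made.

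The reads at starts were spread unevenly, with Rpl13a, Rpl36al, Rpl35, Rpl32, Rpl14, Rpl6 and Rpl10 among those holding the most. Rpl13a held 178 reads, 30 and 65 in Con, 24 and 33 in Step1, with 11 and 15 in Step2, or 13.6 and 29.8, 10.5 and 17.0, and 7.54 and 10.6 CPM. Its Con and Step2 libraries did not overlap. Rpl36al, a close copy of Rpl36a with an almost identical protein, held 22 and 37 reads in Con, 23 and 10 in Step1, with 3 and 4 in Step2; both Step2 libraries lay below the other 4. Its start lies next to that of Mgat2 on the other strand, so the reads there cannot be assigned to 1 of the 2 promoters.
Rpl35, a large subunit protein, held 22 and 12 reads in Con, 10 and 11 in Step1, with 11 and 3 in Step2. Rpl10, which is added late and is needed for the subunits to join, held 9 and 14 reads in Con, 1 and 8 in Step1 and none in either Step2 library.
The 60 reads counted at the start of Rpl32 were a different matter, because its snoRNA lies inside the window: 2 of them remained without snoRNA ends. Of the others, 6 of 40 reads remained at the start of Rpl6, and 178 and 99 of as many at those of Rpl13a and Rpl36al.

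**Figure D4:**
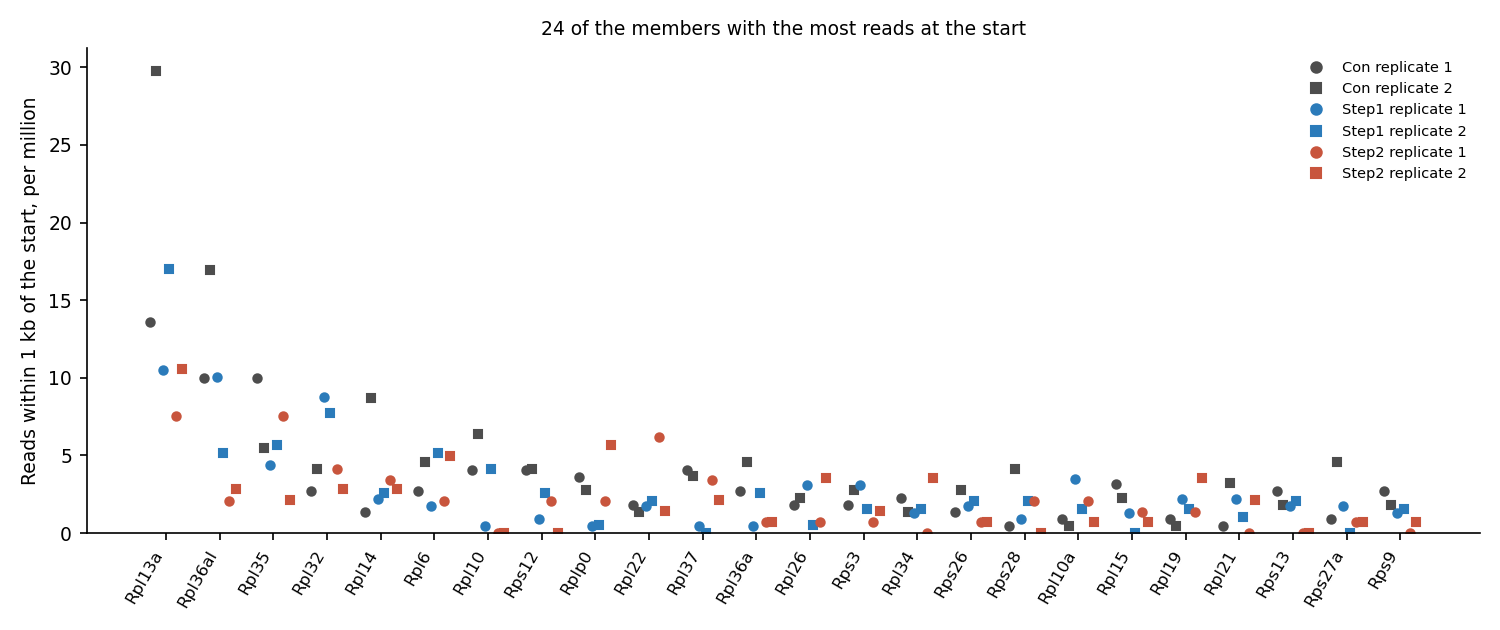
CPM within 1 kb of the start for 24 of the ribosomal protein genes with the most such reads, 1 point per library, all reads. Rpl13a leads with 7.54 to 29.8 CPM, and the Con replicate 2 point is the highest at Rpl13a, Rpl36al and Rpl14.

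At single bases near starts, repeated reads were found upstream of genes such as Rpl13a and Rpl36al. The 60 bases around one of these positions are shown on the strand of the gene, 5′ to 3′, with the labelled base in capitals, because it carries the most repeated reads upstream of a start.
Rpl13a: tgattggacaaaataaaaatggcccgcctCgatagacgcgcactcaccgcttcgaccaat
The window lies at chr7:45128828-45128887 (minus strand) in GRCm38.p6. Upstream of Rpl13a, 48 sense reads began 97 bases before the start, 15 and 20 in Con, 3 and 6 in Step1, with 3 and 1 in Step2. A further 31 reads began on the other strand 103 bases before the start, 1 and 15 in Con, 6 and 5 in Step1, with 1 and 3 in Step2. These positions face away from each other with 5 bases between them.
In all, 26 positions in 17 genes held at least 10 reads: 16 at snoRNAs, 7 upstream of starts, 2 in exons and 1 in an intron away from snoRNAs. Of the last 3, the 26 sense reads in an exon of Rpl35, 460 bases after the GENCODE start, came from all 6 libraries (5 and 8, 3 and 5, 4 and 1). The RefSeq start of Rpl35 lies 493 bases after the GENCODE start. By RefSeq this position is therefore upstream of the start, and part of the body counted for Rpl35 is too. The 12 reads at an exon position of Rpl22 all came from replicate 2 of Con, and the 11 at an intron position of Rps27l, a p53-induced copy of Rps27, all from replicate 1 of Con.

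The promoters of these genes held more of some motifs than promoters in general. In RefSeq promoters from 250 bases before to 50 bases after a start, available for 77 starts of 65 members, the ETS motif CCGGAAG was found on either strand in 33.8%, against 11.9% of 20061 protein-coding promoters, and the YY1 motif AAGATGGC in 10.4% against 3.11%. The Sp1 box GGGCGG was found in 59.7% against 48.0%, CGCATGCG (NRF1) in 3.90% against 2.61%, and the TATA box TATAAA in 9.09% against 12.1%. A start at C followed by 4 pyrimidines, the letters of a 5′ terminal oligopyrimidine tract, was found in 18.2% against 2.24%. The ETS and YY1 motifs can share the letters AAG, so that 1 stretch can count for both, and a match describes letters only. For 11 members the nearest RefSeq start lay over 200 bases from the GENCODE start, and for 4 over 1 kb.

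In the tests across all genes, no ribosomal protein gene was called in any of the 3 comparisons. The fit, limma voom over all 6 libraries, took starts and bodies that reached 10 reads in 2 or more libraries, and called means a Benjamini-Hochberg adjusted p under 0.05 over all features. Of the 85 genes, 6 passed this filter at starts (among them Rpl13a, Rpl32, Rpl35, Rpl36al and Rpl6) and 17 in bodies. At starts, 0 of 6 were called in each comparison, where 0.109%, 0.109% and 0% of all 917 starts were called for Step1 against Con, Step2 against Con and Step2 against Step1. In bodies 0 of 17 were called, where 0.123%, 0.0941% and 0.0434% of 13811 bodies were. At an unadjusted p under 0.05, limma voom had 1, 1 and 0 of the 6 starts, beside 219, 190 and 21 of all 917 starts. In bodies it had 4, 3 and 4 of the 17, beside 978, 1073 and 472 of all 13811. With limma-trend 0 members were called, except Rpl4 in its body for Step2 against Step1.
The median log2 fold change of the tested members at starts was -0.57 for Step1 against Con, -0.61 for Step2 against Con and -0.38 for Step2 against Step1, beside -0.95, -1.19 and -0.25 over all starts tested. In bodies it was -0.28, -0.39 and -0.34, beside -0.04, -0.04 and -0.00 over all bodies. Without snoRNA ends 9 bodies passed the filter, with medians of 0.04, 0.19 and 0.07.

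The smallest p-values belonged to the snoRNA hosts. The body of Rpl5, with 25.0 and 51.8 CPM in Con and 13.6 and 17.0 in Step1, differed by -1.24 ± 0.31 (log2, SE; limma voom adjusted p = 0.102) for Step1 against Con. That of Rpl4, with 335 and 235 CPM in Step1, with 138 and 193 in Step2, differed by -0.81 ± 0.18 (limma voom adjusted p = 0.118) for Step2 against Step1. In both genes nearly all body reads were snoRNA ends: 23 of 326 reads of Rpl5 and 54 of 2758 of Rpl4 remained without them. With the replicate number as a block both were called by limma voom, at adjusted p = 0.0073 and 0.0024. Without replicate 1 of Con, Rpl5 was called for Step1 against Con (-1.76, limma adjusted p = 8.86e-05), and Rpl4 for Step2 against Con (-0.96, adjusted p = 1.85e-05). Without replicate 2 of Con, Rpl4 was higher in Step1 than in Con (0.78, limma adjusted p = 0.0088), whereas without replicate 1 of Con that difference was -0.15. For Step2 against Step1, Rpl4 was also called without replicate 1 of Con, without replicate 2 of Con and without replicate 2 of Step1, at -0.81, -0.81 and -1.04.
Other snoRNA hosts had an unadjusted p under 0.05 and missed the adjusted threshold, among them the body of Rps2 for Step1 against Con (-2.44 ± 0.93, limma voom adjusted p = 0.556), that of Rpl32 for Step1 against Con (1.06 ± 0.49, adjusted p = 0.682) and that of Rpl3 for Step2 against Con (-1.42 ± 0.66, adjusted p = 0.611).
Among the tested bodies without snoRNAs, Rpl11, the partner of Rpl5, held 11.8 and 5.95 CPM in Con, 9.65 and 10.8 in Step1, with 13.0 and 11.3 in Step2. Rps14, a protein of the small subunit platform, held 9.08 and 8.24, 11.8 and 10.8, and 12.3 and 14.1 CPM, with Con below the other 4 libraries; its difference for Step2 against Con was 0.61 ± 0.39 (limma voom adjusted p = 0.744). Rps10 held 2.27 and 6.41, 1.75 and 5.15, and 0 and 2.82 CPM, on 37 reads; its difference for Step2 against Con was -1.96 ± 1.04 (limma voom adjusted p = 0.668).

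At starts the largest fitted difference was that of Rpl36al for Step2 against Con, -2.27 ± 0.85 (log2, SE; limma voom adjusted p = 0.199; 0.0463 with the replicate block). Rpl13a had -1.13 ± 0.54 (limma voom adjusted p = 0.230; 0.0456 with the replicate block and 0.0028 without replicate 1 of Con) for the same comparison, and -1.16 (adjusted p = 0.0288) for Step1 against Con without replicate 1 of Con. With median-of-ratios scaling, trimmed mean of M values or a GC smooth removed, the values of Rpl13a for Step1 and Step2 against Con turned positive, and that of Rpl36al for Step1 against Con too. Rpl32 differed by 1.24 ± 0.53 for Step1 against Con (limma voom adjusted p = 0.203) and was called with 3 of the other settings, such as median of ratios (2.24, adjusted p = 0.0030), on reads of its snoRNA.

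**Figure D5:**
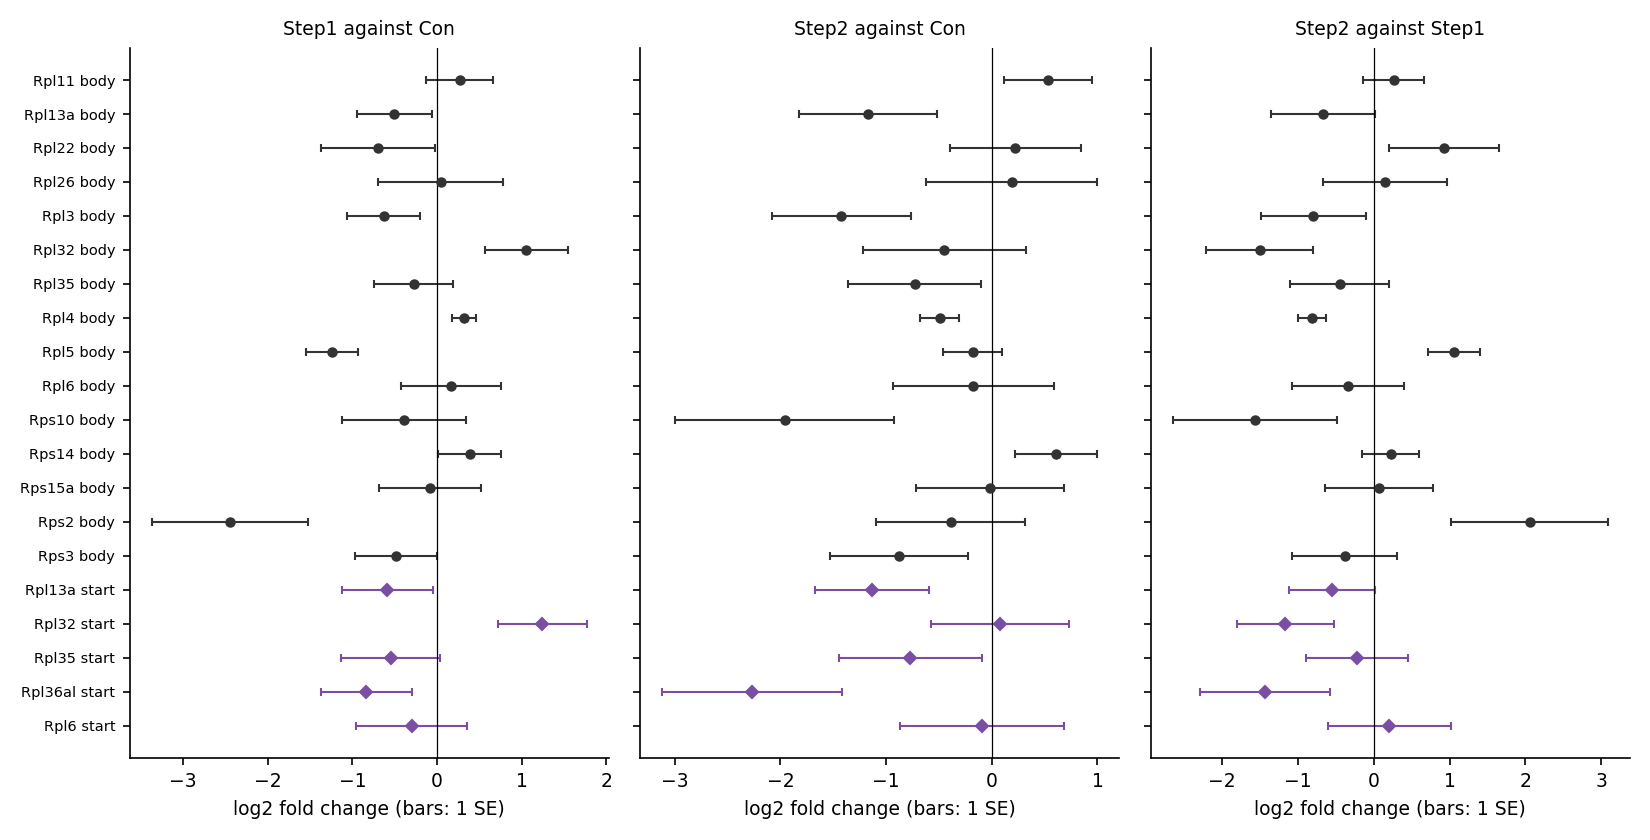
Log2 fold change of tested bodies (circles) and starts (diamonds) of ribosomal protein genes in the 3 comparisons, from limma voom over all 6 libraries; bars are 1 standard error, and no point passed an adjusted p of 0.05. Rpl4 has the shortest bars, and Rps2 and Rps10 are the bodies drawn farthest from 0.

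Genes whose groups did not overlap were counted next, which takes in starts too thin to be tested along with the tested ones. Among starts with at least 12 reads in all, 47 of them of members, 14 were lower in Step1 than in Con in every pairing of their libraries and 4 higher, where 28.6% of 9130 starts were lower and 11.1% higher. For Step2 against Con, 16 were lower and 5 higher (background 26.5% and 12.8%). For Step2 against Step1, 8 were lower and 12 higher (17.5% and 16.9%). The 3 comparisons share libraries. These counts used all reads, including snoRNA ends inside the window. Rpl32, whose start reads were nearly all snoRNA ends, is among the 4 higher in Step1 than in Con. It is also among the 8 lower in Step2 than in Step1. Genes lower in both Step1 and Step2 than in Con included Rps9, Rpl15, Rpl37, Rplp2 of the stalk and Rps27rt, an intronless copy of Rps27; Rpl19 was higher in both. The share of all starts lower or higher in both was not counted, so these names are a list and not a result about the members.

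Of the 9 forms outside the usual ribosome, Rpl36al, described above, held the most start reads, 99, with 6 in its body. Rpl3l had 5 reads at its start and 33 in its body, Rpl10l, the form of the testis, 5 and 1, and Rpl39l, the form of male germ cells, 9 and 21. Rpl22l1, which can replace Rpl22, had 12 and 16, Rpl7l1, a nucleolar assembly factor, 10 and 24, Rps19bp1 15 and 21, and Rps27l 9 and 36. Rps27rt had 13 at its start and 0 in its body, which is 374 bases long. The median start count was 10 over these 9 forms, 13 over the large subunit, 12.5 over the small subunit and 12 over the stalk.

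No gene of the pathways that build or regulate ribosomes was called either. At starts, limma voom tested 1 of 16 genes of polymerase I transcription, 1 of 45 matched ribosome assembly genes, 1 of 16 translation factors with a terminal oligopyrimidine tract and 2 of 16 genes of the mTOR pathway, and called 0 up and 0 down in each comparison. In bodies it tested 12, 34, 9 and 12 of them and also called 0. The starts with the most reads were those of Mtor, the kinase, with 26 and 30 reads in Con, 4 and 13 in Step1, with 4 and 7 in Step2; Imp4, of the small subunit processome, with 15 and 22, 12 and 6, and 8 and 8; and Maf1, a repressor of polymerase III, with 14 and 20, 11 and 8, and 5 and 5. In these 3 genes both Con libraries lay above the other 4 in CPM. They were picked by reads summed over all libraries, which favours starts with many Con reads. Of the 9130 starts with at least 12 reads, 28.6% were lower in Step1 than in Con without overlap, and 26.5% in Step2. The share lower in both was not counted. Of the ribosomal subunits that the symbol rule leaves out, Rack1 and Fau were near the members' median, with 13 and 8 reads at their starts.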

How the data were processed

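BLISS read files of 6 libraries were used, 1 line per aligned read. Per the submitters' processing notes, Bowtie2, SAMtools and bedtools were used with build mm10 (versions: not given in the sources used here), and per the labels duplicates were removed by molecular identifier. The deposited score of each read is its mapping quality, 11 to 42. Reads were counted here by first base in gene bodies and within 1 kb of gene starts (GENCODE), with all reads, with 1 read per position and strand, and with a score of at least 30. Library size was the reads on chromosomes 1 to 19 and X outside 26 windows of 10 kb that held over 20 times the median (45). The fits used voom of limma 3.58.1 in R 4.3.3 with a mean for each group, and were two-sided. The same fit was run on simulated counts with known changes and no shift between replicates. That run therefore does not cover a spread like that between the Con libraries. Counting used Python 3.11.15. Errors are those between 2 libraries a group, and depth limits genes with few reads.

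Some genes are not reported here by name but stay in counts, sums and fits. The members and lists were chosen with earlier results of these data known. Named members are the 8 with most start reads, the 6 densest bodies, those called or with the 3 smallest p per comparison and direction, those with groups apart or repeated positions, and the forms outside the usual ribosome; from pathway lists, the genes with most start reads. Further snoRNA hosts, the genes with the largest strand difference and those listed as lower or higher in both Step1 and Step2 were named after their values were seen. Leaving out snoRNA 3′ ends, using RefSeq starts and leaving out Rpl4 were alternatives chosen after seeing the data.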

Additional observations from a re-analysis of the deposited data

How the results depend on the processing

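Depth was one limit: 6 of 85 starts and 17 of 85 bodies had the reads to be fitted, and the smaller snoRNA sites rest on 10 to 58 reads. Where leaving out 1 library left a group with a single library, that library took the spread of the remaining groups by assumption. Replicate numbers did not pair the libraries (correlations of replicate differences 0.03, 0.005 and -0.005).

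The number of members called, 0 in each main comparison, was 1 in some settings: at starts for Step1 against Con with median of ratios, 1 with trimmed mean of M values and 1 with the GC smooth removed; in bodies for Step1 against Con 1 with piled-up windows left out and 1 in sequencing run 2, and for Step2 against Step1 1 with limma-trend and 1 in sequencing run 2. With the replicate block it was 2 at starts for Step2 against Con, 1 in bodies for Step1 against Con and 1 for Step2 against Step1; with the replicate block and the GC smooth removed it was 1 in bodies for Step1 against Con and 1 for Step2 against Step1. With 1 library left out it ran from 0 to 2 at starts for Step1 against Con, from 0 to 1 there for Step2 against Con, and from 0 to 1 in bodies for Step1 against Con, for Step2 against Con and for Step2 against Step1. The replicate block changed no other count of called members. Over all features, calls at starts (1, 1 and 0 in the 3 comparisons, in that order) were 136, 147 and 4 with the replicate block, 6, 23 and 1 with median of ratios, 20, 3 and 4 with 1 read per position and 217, 162 and 5 without replicate 1 of Con. In bodies (17, 13 and 6) they were 38, 43 and 11, then 9, 11 and 6, then 15, 16 and 4, and then 148, 106 and 8. In the remaining settings they ran from 0 to 42 at starts and from 1 to 35 in bodies.

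The summed level at starts (log2; -0.55, -0.60 and -0.05 for Step1 against Con, Step2 against Con and Step2 against Step1) was 0.47, 0.69 and 0.22 with median of ratios and 0.47, 0.63 and 0.16 with trimmed mean of M values. With 2 kb each side of the start it was -0.047 for Step1 against Con and -0.38 for Step2 against Step1, and with 1 read per position 0.11 for Step2 against Step1. The summed level in bodies was -0.0082 for Step1 against Con and ran from -0.31 (without Rpl4, or with piled-up windows left out) to 0.31 (without replicate 2 of Con) over 16 alternatives. It was -0.32 for Step2 against Con, but 0.12 with 1 read per position and 0.09 without snoRNA 3′ ends. For Step2 against Step1 it was -0.31, but 0.18 with 1 read per position, 0.19 with piled-up windows left out, 0.19 without Rpl4 and 0.13 without snoRNA 3′ ends. Leaving out piled-up windows and leaving out Rpl4 gave the same summed levels in every library, so they are not separate alternatives for these sums. Antisense exon density, 0.498 CPM per kb, was 0.252 with 1 read per position and 0.179 without snoRNA ends; antisense intron density, 1.39, was 0.208 with 1 read per position, 0.207 without piled-up windows and 0.165 without snoRNA ends.

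Log2 fold changes that turned sign did so mostly at starts under other scalings. In the order of median of ratios, then trimmed mean of M values, GC smooth removed, and replicate block with the GC smooth removed, they were 0.39, 0.40, 0.36 and 0.36 for Rpl13a and 0.14, 0.15, 0.13 and 0.14 for Rpl36al, both Step1 against Con, and 0.10, 0.044, 0.12 and 0.10 for Rpl13a and 0.33, 0.27, 0.45 and 0.56 for Rpl35, both Step2 against Con. With 2 kb each side of the start, Rpl32 had -0.20 for Step2 against Con and Rpl6 -0.47 for Step2 against Step1. In bodies, Rpl3 had 0.014 with 1 read per position and 0.24 without snoRNA ends for Step1 against Con, and Rpl4 0.33 and 0.30 for Step2 against Con. With 1 library left out the values ran from -1.39 to 0.020 for the body of Rpl3 and from -0.15 to 0.78 for that of Rpl4, both Step1 against Con; from -0.20 to 0.36 for the start of Rpl32 and from -1.63 to 0.045 for that of Rpl35, Step2 against Con; and from -0.62 to 0.76 for the start of Rpl6 and from -3.18 to 0.027 for the body of Rps10, Step2 against Step1. Among the values of named members under an alternative, 445 kept direction and side of the threshold, 30 turned sign and 21 passed the threshold in the same direction. The cause of these changes was not tested beyond what leaving out reads, features or libraries shows.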

Other observations

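Processed pseudogenes of ribosomal proteins, which the symbol rule leaves out, held few reads. The 285 annotated pseudogenes with a ribosomal protein symbol held 446 reads, and 136 of them had at least 1. Rpl19-ps3 alone held 102, or 81 at distinct positions, and 101 had a mapping quality of at least 30. The density over all of them was 0.211 ± 0.0303 CPM per kb in Con, 0.209 ± 0.0738 in Step1 and 0.303 ± 0.0291 in Step2 (SD, n = 2 each), below the 0.427 of the genes themselves without snoRNA ends.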
